A study of Mus musculus with 8 samples.

Results

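DNA replication and mitosis genes encode the machinery that copies the genome and divides the cell. Their transcripts were read in brown adipose tissue of mice with an adipocyte deletion of Nampt, which encodes the rate-limiting enzyme of NAD+ salvage, and of control mice. The genes came from a list of 50 symbols, matched to Ensembl identifiers through GENCODE M21 (GRCm38), and 50 of 50 were found among the 41388 genes of the tables. By role, 25 act at the G1/S transition or in DNA synthesis (called G1/S genes here) and 25 in G2, mitosis or cytokinesis (called G2/M genes).

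The ANKO group held 4 mice in which floxed Nampt was combined with a Cre transgene under the adiponectin promoter. This promoter is active in adipocytes, so immune, vascular and connective tissue cells keep the gene. The WT group held 4 mice labelled wild type with flox/flox alleles. All 8 mice were C57BL/6J on regular chow at room temperature, and no age is given in the sources used here. RNA depleted of rRNA gave 5738067 to 26426476 gene counts per library in ANKO mice and 21771276 to 49697156 in WT mice. The 50 genes together held 3071 to 8869 of these counts per ANKO library and 4469 to 8047 per WT library. Levels are given as CPM, read counts scaled to a common library size with TMM factors, and as RPKM, the CPM per kb of gene length, where genes are set against each other.

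Nampt read 67.4 to 77.6 CPM in ANKO libraries against 484 to 571 CPM in WT libraries (log2 fold change -2.81, SE 0.12, edgeR adjusted p = 1.51e-07). Ucp1, the uncoupling protein that marks brown fat, was present in every library, at 317 to 1673 CPM in ANKO libraries against 3369 to 8829 CPM in WT libraries. Markers of other cells also differed, and the values are whole-tissue levels, so fewer cells of a type and less RNA per cell cannot be told apart. Summed macrophage markers read 1597 to 2655 CPM in ANKO libraries against 191 to 280 CPM in WT libraries (15 of 16 higher). Summed lymphocyte markers read 34.2 to 55.5 CPM in ANKO libraries against 5.69 to 7.82 CPM in WT libraries (11 of 12 higher). Fibroblast and progenitor markers read 3968 to 7535 CPM in ANKO libraries against 864 to 1257 CPM in WT libraries (7 of 8 higher). Skeletal muscle markers read 9430 to 13588 CPM in ANKO libraries against 28.4 to 2481 CPM in WT libraries (9 of 11 higher). Neutrophil and mast cell markers read 51.8 to 85.9 CPM in ANKO libraries against 13.5 to 46.4 CPM in WT libraries (3 of 4 tested, of 7, higher). Endothelial markers read 671 to 714 CPM in ANKO libraries against 828 to 934 CPM in WT libraries (1 of 6 higher, 3 lower). Adipocyte markers (8 of 8 lower) read 5562 to 10074 CPM in ANKO libraries against 17478 to 25063 CPM in WT libraries. Erythroid markers (5 of 5 tested, of 7, lower) read 152 to 248 CPM in ANKO libraries against 312 to 695 CPM in WT libraries. In each list, 0 markers were without counts throughout a group.

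In a resting cell, pocket proteins hold E2F factors in check, and cyclin-dependent kinases release them when the cell commits to divide. E2F then switches on the licensing factors that load the MCM helicase, the polymerase accessory proteins and the enzymes of nucleotide supply. Later, B-Myb and FoxM1, bound to the MuvB complex, switch on the genes of mitosis, many of which carry a cell cycle homology region (CHR) and CCAAT boxes near their start. Mature adipocytes are regarded as non-dividing, so such transcripts in fat are usually looked for in progenitors, vascular cells and immune cells.

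The promoters of both gene groups are described next, and a link between their letters and the changes in level was not tested. RefSeq windows (GRCm38.p6, 250 bases before to 50 after the start) were available for 40 of the 50 genes, with the window listed first used where a gene had several. The CHR was searched as TTTGAA or TTCGAA, the CCAAT box as CCAAT, and the E2F site as TTTGGCGC, TTTCCCGC, TTTGCCGC or TTTCGCGC, all on both strands. Hits of different motifs overlapped in 1 of the 40 windows. CHR letters stood in 15 of 19 G2/M windows (78.95%) and in 4 of 21 G1/S windows (19.05%), against 19.44% of 27025 promoters of the same length. E2F letters stood in 2 of 19 G2/M windows (10.53%) and in 9 of 21 G1/S windows (42.86%), against 2.316% of all promoters. The CCAAT box was found in 16 of 19 G2/M windows and 15 of 21 G1/S windows, against 37.92% of all promoters. A match describes the letters and not the binding of a factor.

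Windows of genes on which the results turn are printed 5′ to 3′, with every hit of the 3 motifs in capitals. Mki67 (chr7:135716330-135716629, minus strand), Top2a (chr11:99024140-99024439, minus strand) and Cdk1 (chr10:69352863-69353162, minus strand) are G2/M genes. Not all G2/M windows look like theirs: those of Birc5, Ccnb1, Cenpe and Nusap1 hold no CHR letters, and that of Birc5 holds no hit of any motif. Mcm6 (chr1:128359656-128359955, minus strand) and Mcm7 (chr5:138171834-138172133, minus strand) belong to the same helicase ring, and Rrm2 (chr12:24708004-24708303, plus strand) and Rrm1 (chr7:102441445-102441744, plus strand) to the same enzyme, and in each pair the transcripts parted.
Mki67: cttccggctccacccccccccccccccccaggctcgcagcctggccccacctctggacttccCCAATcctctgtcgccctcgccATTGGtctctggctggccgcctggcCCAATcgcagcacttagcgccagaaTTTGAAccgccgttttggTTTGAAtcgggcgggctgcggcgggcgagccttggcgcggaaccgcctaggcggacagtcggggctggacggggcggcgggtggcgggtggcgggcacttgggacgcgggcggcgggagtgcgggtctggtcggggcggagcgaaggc
Top2a: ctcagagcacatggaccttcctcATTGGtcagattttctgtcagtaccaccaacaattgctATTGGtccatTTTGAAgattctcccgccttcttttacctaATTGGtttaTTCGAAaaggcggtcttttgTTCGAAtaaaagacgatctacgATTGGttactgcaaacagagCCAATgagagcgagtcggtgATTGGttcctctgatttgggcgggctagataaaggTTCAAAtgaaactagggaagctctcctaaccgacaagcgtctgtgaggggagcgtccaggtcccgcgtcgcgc
Cdk1: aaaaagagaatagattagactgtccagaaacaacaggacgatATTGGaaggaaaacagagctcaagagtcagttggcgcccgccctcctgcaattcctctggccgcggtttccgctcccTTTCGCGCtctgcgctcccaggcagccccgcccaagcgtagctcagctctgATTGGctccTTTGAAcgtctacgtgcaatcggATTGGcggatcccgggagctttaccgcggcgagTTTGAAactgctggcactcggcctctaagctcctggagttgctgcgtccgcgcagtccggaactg
Mcm6: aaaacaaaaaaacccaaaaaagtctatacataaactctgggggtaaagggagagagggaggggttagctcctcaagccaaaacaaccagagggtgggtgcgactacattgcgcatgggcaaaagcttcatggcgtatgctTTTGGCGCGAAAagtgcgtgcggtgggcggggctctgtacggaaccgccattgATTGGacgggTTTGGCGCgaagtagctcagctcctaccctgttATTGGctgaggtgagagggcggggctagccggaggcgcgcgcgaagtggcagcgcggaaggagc
Mcm7: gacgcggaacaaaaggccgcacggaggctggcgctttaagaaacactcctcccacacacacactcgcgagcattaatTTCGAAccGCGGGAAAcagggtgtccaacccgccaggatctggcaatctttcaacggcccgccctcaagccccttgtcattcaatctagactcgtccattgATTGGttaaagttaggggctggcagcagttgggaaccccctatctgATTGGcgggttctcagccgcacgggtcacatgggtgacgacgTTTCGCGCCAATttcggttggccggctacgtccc
Rrm2: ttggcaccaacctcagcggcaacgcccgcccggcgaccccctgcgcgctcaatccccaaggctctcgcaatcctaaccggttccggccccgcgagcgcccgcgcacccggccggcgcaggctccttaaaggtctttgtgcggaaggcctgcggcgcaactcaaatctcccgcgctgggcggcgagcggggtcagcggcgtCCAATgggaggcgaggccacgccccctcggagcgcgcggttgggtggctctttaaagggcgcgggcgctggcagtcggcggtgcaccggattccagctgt
Rrm1: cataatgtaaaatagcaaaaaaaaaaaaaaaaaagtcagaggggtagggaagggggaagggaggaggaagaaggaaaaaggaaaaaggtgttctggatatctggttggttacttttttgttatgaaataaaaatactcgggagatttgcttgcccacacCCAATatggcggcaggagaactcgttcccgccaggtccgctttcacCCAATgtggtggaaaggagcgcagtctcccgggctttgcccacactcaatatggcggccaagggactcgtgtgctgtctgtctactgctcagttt
The Mki67 window holds 2 CHR and 3 CCAAT hits, that of Top2a 4 and 6, and that of Cdk1 2 and 3 with 1 E2F hit. Mcm6 has 3 E2F and 2 CCAAT hits, and 2 of these E2F hits overlap, 1 on each strand of the same stretch. Rrm2 has 1 CCAAT hit and Rrm1 has 2, with no E2F or CHR hit in either window. Mcm7, whose transcript was not called, has 2 E2F, 3 CCAAT and 1 CHR hits. Among G1/S windows, E2F letters stood in 5 of 13 of members called higher and in 4 of 8 of members not called. The CCAAT box stood in 7 of 13 and 8 of 8 of these windows, and CHR letters in 2 of 13 and 2 of 8.

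Mitosis genes rose throughout the list in ANKO brown fat, and DNA replication genes rose in part. Of the 49 members with enough counts to be tested, 41 were higher and 0 lower (edgeR quasi-likelihood test, adjusted p under 0.05 over 16705 genes). Of all genes tested, 30.6% were higher and 27.6% lower, 58.2% in either direction. Among G2/M genes 24 of 24 tested were higher and the median log2 fold change was 2.15. Among G1/S genes 17 of 25 were higher and the median was 0.90, beside -0.01 over all genes tested. A rise of at least 2-fold was called for 22 G2/M genes and 10 G1/S genes, against 21.4% of all genes. In 40 of the 49 members every ANKO library lay above every WT library and in 0 below, against 28.7% and 26.4% of all genes. These rises stood beside the higher macrophage, lymphocyte and fibroblast marker levels given above, whose part in the result was not tested, and beside the muscle level, which entered a fit described further on.

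**Figure D1:**
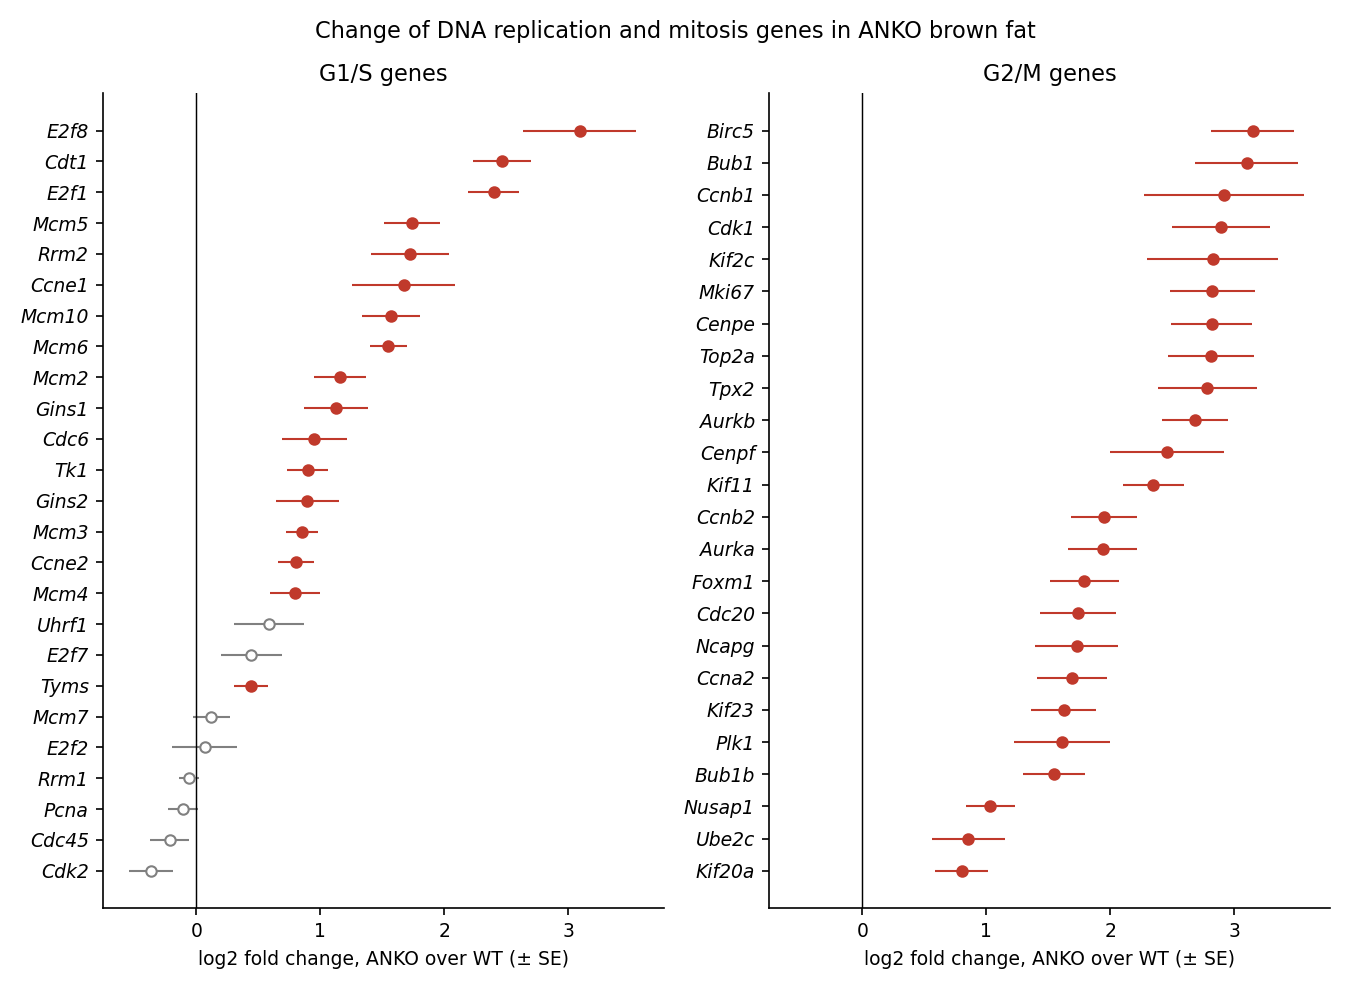
Log2 fold change (ANKO over WT, horizontal axis) of the 25 tested G1/S genes and the 24 tested G2/M genes, with the SE as whiskers. Red filled points were called higher and open grey points were not called. All G2/M points lie right of 0, from 0.80 to 3.15, and the G1/S points run from -0.37 to 3.09.

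The sum over G2/M genes was 118, 179, 168 and 202 CPM in ANKO1 to ANKO4, against 36.9, 51.3, 27.9 and 26.0 CPM in WT1 to WT4. The sum over G1/S genes was 221, 245, 254 and 246 CPM in ANKO1 to ANKO4, against 184, 182, 153 and 157 CPM in WT1 to WT4. Neither sum overlapped between the groups. The ratio of the mean ANKO sum to the mean WT sum was 4.69 for G2/M genes and 1.43 for G1/S genes. Among the marker lists this ratio was 13.5 for skeletal muscle, 9.19 for macrophage, 6.88 for lymphocyte and 4.87 for fibroblast and progenitor markers. It was 2.64 for neutrophil and mast cell, 0.80 for endothelial, 0.41 for erythroid and 0.39 for adipocyte markers. Per length, the summed RPKM of G2/M genes over that of G1/S genes was 0.374 to 0.567 in ANKO libraries and 0.138 to 0.201 in WT libraries. Libraries also differed within a group. WT2 held the highest WT level of 19 of the 25 G2/M genes, and WT3 or WT4 the lowest of 24 of them. The same WT1 and WT2 libraries carried more skeletal muscle RNA (837 and 2481 CPM over the markers) than WT3 and WT4 (106 and 28.4 CPM). Fibroblast and progenitor markers were also higher in WT1 and WT2 (1195 and 1257 CPM) than in WT3 and WT4 (864 and 1001 CPM). So were lymphocyte, neutrophil and mast cell markers. Macrophage, adipocyte and erythroid markers were lower in WT1 and WT2, and endothelial markers overlapped. Which of these orders bears on the G2/M genes was not tested. ANKO1 held the lowest ANKO level of 22 G2/M genes. It was also the deepest ANKO library and the ANKO library with the lowest muscle sum (9430 CPM) and the lowest fibroblast and progenitor sum (3968 CPM). ANKO4, with the highest G2/M sum, had the highest fibroblast and progenitor sum (7535 CPM), while the muscle sum was highest in ANKO3 (13588 CPM).

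**Figure D2:**
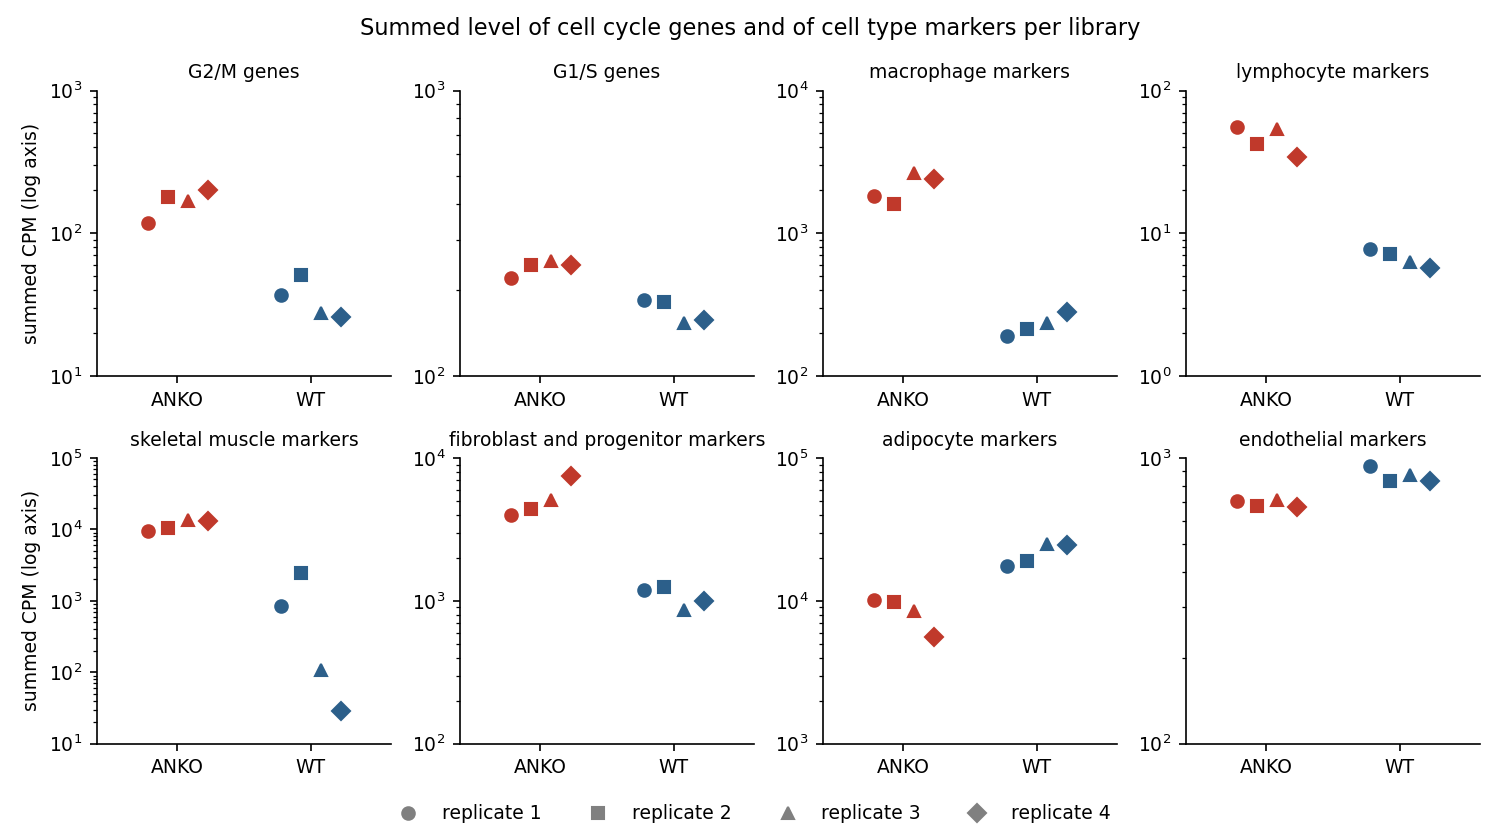
Summed CPM per library (log axis, each with its own scale) of the G2/M and G1/S genes and of 6 marker lists, with ANKO libraries in red left of WT libraries in blue and one symbol per replicate number. The G2/M sums of 118 to 202 CPM in ANKO lie above 26.0 to 51.3 CPM in WT, as do the macrophage, lymphocyte, muscle and fibroblast markers, while adipocyte and endothelial markers lie lower in ANKO.

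Because muscle RNA differed with genotype, the fit was repeated with the mean log2 level of the muscle markers as a covariate (Pearson r with genotype 0.85 over 8 libraries). With it 12 members were called higher, 6 G1/S and 6 G2/M, against 13.2% of all genes, and the median log2 fold changes were 0.54 and 1.28. The members that kept their call were Mcm3, Mcm5, Mcm6, Mcm10, Cdt1, E2f1, Mki67, Top2a, Aurkb, Birc5, Kif11 and Cenpe. Of the 41 members called in the plain fit, 40 kept a positive value, and Mcm4 was at -0.00853. The median SE of the members was 0.47 with the covariate and 0.26 without it. Without WT3 and WT4, which carry little muscle RNA, 38 members were higher (16 G1/S, 22 G2/M), and without WT1 and WT2, which carry more, 42 were higher (17 G1/S, 25 G2/M). The median log2 fold change of G2/M genes was 1.79 in the fit without WT3 and WT4 and 2.60 in the fit without WT1 and WT2.

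Among the factors that commit a cell to S phase, the activator E2f1 and the atypical repressor E2f8 rose. E2f1 read 5.40, 3.92, 5.67 and 4.66 CPM in ANKO1 to ANKO4, against 1.09, 1.01, 0.763 and 0.910 CPM in WT1 to WT4. The rise was 5.27-fold (log2 fold change 2.40, SE 0.21, edgeR adjusted p = 7.81e-06). E2f8 had the largest change of the G1/S genes and was also the rarest of the 50 members per length (0.150 RPKM over all libraries), at 1.19, 1.73, 0.757 and 2.19 CPM in ANKO1 to ANKO4 against 0.149, 0.311, 0.122 and 0.0910 CPM in WT1 to WT4. Its rise of 8.51-fold (log2 fold change 3.09, SE 0.46, edgeR adjusted p = 0.000278) rests on 8 to 31 counts per ANKO library and 3 to 8 counts per WT library. The related E2f2 and E2f7 were not called. E2f2, an activator, read 10.9, 10.9, 8.42 and 11.5 CPM in ANKO1 to ANKO4 against 15.9, 8.82, 6.01 and 9.26 CPM in WT1 to WT4, so its WT libraries spread around the ANKO values. E2f7, a repressor like E2f8, read 3.48, 5.07, 5.30 and 3.64 CPM in ANKO libraries against 2.33, 2.72, 3.17 and 4.41 CPM in WT libraries (log2 fold change 0.45, SE 0.24, edgeR adjusted p = 0.140). It was called without WT4, at 0.65 (edgeR adjusted p = 0.0396), and with all libraries when library totals alone were used, at 0.63 (edgeR adjusted p = 0.0486).

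Cyclin E, which drives entry into S phase, rose in both of its forms, while its kinase did not. Ccne1 averaged 3.39 ± 0.709 CPM in ANKO libraries and 1.12 ± 0.669 CPM in WT libraries (SD, n = 4 each), a log2 fold change of 1.67 (edgeR adjusted p = 0.00583). It was at 1.02 without WT3 and WT4 and 2.58 without WT1 and WT2. Ccne2 read 15.4, 20.3, 21.9 and 15.9 CPM in ANKO1 to ANKO4 against 10.3, 11.2, 11.5 and 9.13 CPM in WT1 to WT4, a rise of 1.74-fold (SE 0.15 on the log2 scale, edgeR adjusted p = 0.00098). Its exons share bases with Ints8 on the other strand, which was lower in ANKO (log2 fold change -0.36). Cdk2, the kinase bound by cyclins E and A, read 13.3, 16.1, 15.8 and 13.3 CPM in ANKO1 to ANKO4 against 23.3, 22.5, 14.8 and 14.95 CPM in WT1 to WT4. WT1 and WT2 lay above the ANKO libraries while WT3 and WT4 lay among them, and the gene was not called (log2 fold change -0.37, SE 0.18, edgeR adjusted p = 0.0969). It was called lower without WT3 (-0.48, edgeR adjusted p = 0.0412), without WT4 (-0.47, edgeR adjusted p = 0.0436), without both (-0.66, edgeR adjusted p = 0.00329) and with the muscle covariate (-1.01, edgeR adjusted p = 0.00747).

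Of the 8 members that load or form the MCM helicase, Cdc6, Cdt1 and Mcm2 to Mcm7, 7 rose. Of the 6 origin recognition genes, which are not members, Orc2 and Orc3 were lower and the other 4 were not called. Over all genes tested 30.6% were higher and 27.6% lower, so the count of lower origin recognition genes lies near that share. Cdt1, which loads the MCM helicase onto chromatin, rose 5.52-fold and was the G1/S gene with the largest change after E2f8. It read 3.67, 3.11, 4.54 and 5.25 CPM in ANKO1 to ANKO4 against 0.891, 0.699, 0.610 and 0.774 CPM in WT1 to WT4 (log2 fold change 2.47, SE 0.23, edgeR adjusted p = 1.49e-05). Its partner Cdc6 averaged 2.13 ± 0.534 CPM in ANKO libraries and 1.14 ± 0.288 CPM in WT libraries (SD, n = 4 each). It rose by a log2 fold change of 0.95 (edgeR adjusted p = 0.0107) and was not called without ANKO1 (0.74, edgeR adjusted p = 0.0537). Mcm2 to Mcm7 form the ring of the replicative helicase in a fixed stoichiometry. Mcm5 and Mcm6 rose most, 3.34-fold and 2.93-fold. Mcm6 read 21.1, 19.8, 21.7 and 26.5 CPM in ANKO1 to ANKO4 against 7.92, 8.74, 6.04 and 7.67 CPM in WT1 to WT4. Mcm2, Mcm3 and Mcm4 rose 2.23-fold, 1.80-fold and 1.74-fold. Mcm7 was not called, at 12.9, 16.4, 17.97 and 19.7 CPM in ANKO1 to ANKO4 against 15.6, 15.3, 17.3 and 12.9 CPM in WT1 to WT4 (log2 fold change 0.12, SE 0.15, edgeR adjusted p = 0.509). Per length, Mcm7 was the highest of the 6 in WT mice (3.45 RPKM, against 1.10 to 2.03 RPKM for the others), and Mcm6 was the highest in ANKO mice (4.77 RPKM, against 3.78 RPKM for Mcm7). Mcm7 exons share bases with Cops6 and Ap4m1 on the other strand, so reads of these genes may not be told apart. Cops6 was called lower (log2 fold change -0.41) and Ap4m1 was not called (-0.14).

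Genes that fire origins and support the fork were split. Mcm10, which activates the loaded helicase, rose 2.97-fold, and Gins1 and Gins2, subunits of the GINS complex, rose 2.18-fold and 1.86-fold. Gins2 exons share bases with Gse1 on the other strand, which was not called (log2 fold change 0.15). Gse1 held 3107 counts over all libraries, against 247 for Gins2. Cdc45, which joins MCM and GINS in the active helicase, read 5.43, 5.88, 6.53 and 5.25 CPM in ANKO1 to ANKO4 against 6.04, 7.11, 7.93 and 5.71 CPM in WT1 to WT4 (log2 fold change -0.22, SE 0.16, edgeR adjusted p = 0.264). The groups overlapped, and its exons share bases with Ufd1 on the other strand. Pcna, the sliding clamp of the DNA polymerases, read 13.5, 16.9, 16.2 and 15.7 CPM in ANKO1 to ANKO4 against 14.4, 17.1, 16.3 and 18.8 CPM in WT1 to WT4. It was not called (log2 fold change -0.10, SE 0.12, edgeR adjusted p = 0.487), and its sign turned to positive with library totals alone, after thinning and with the muscle covariate. Uhrf1, which recruits DNA methylation to new DNA, read 5.36, 7.49, 6.62 and 6.85 CPM in ANKO1 to ANKO4 against 5.40, 6.37, 2.75 and 3.004 CPM in WT1 to WT4. WT3 and WT4 lay below all ANKO libraries and WT1 and WT2 among them. It was not called (log2 fold change 0.59, SE 0.28, edgeR adjusted p = 0.0966), but was called without WT2 (0.82, edgeR adjusted p = 0.0240) and after thinning (0.86, edgeR adjusted p = 0.0266), and was at -0.47 with the muscle covariate.

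In nucleotide supply, the subunits of ribonucleotide reductase, which makes deoxynucleotides, moved apart. Rrm2, the small subunit that accumulates in S phase, read 3.25, 3.57, 3.50 and 2.77 CPM in ANKO1 to ANKO4 against 0.842, 1.71, 0.580 and 0.865 CPM in WT1 to WT4, a rise of 3.31-fold (log2 fold change 1.73, SE 0.31, edgeR adjusted p = 0.000985). Rrm1, the large subunit, read 31.6, 31.6, 34.0 and 29.1 CPM in ANKO1 to ANKO4 against 33.9, 33.2, 31.7 and 33.0 CPM in WT1 to WT4. It had the highest level per length of the 50 members, at 7.90 RPKM in ANKO mice and 8.25 RPKM in WT mice. With an SE of 0.08 its log2 fold change of -0.06 was not called (edgeR adjusted p = 0.545), and its sign turned to positive with upper-quartile factors, with library totals alone and after thinning. Tk1, the thymidine kinase of S phase, rose 1.86-fold to 12.6 ± 1.52 CPM in ANKO libraries, against 6.74 ± 1.30 CPM in WT libraries (SD, n = 4 each). Tyms, thymidylate synthase, had the smallest called rise of the 50 members, 1.36-fold (edgeR adjusted p = 0.0163). That call was lost without WT4 (edgeR adjusted p = 0.0511), without ANKO2 (edgeR adjusted p = 0.0508), with no filter on low counts and after thinning.

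Ratios of counts within a library do not depend on how libraries are scaled, and 8 ratios between partners were drawn up after the values had been seen, as a description with no test. Mcm6 over Mcm7 was 1.64, 1.21, 1.21 and 1.35 in ANKO1 to ANKO4 against 0.508, 0.570, 0.350 and 0.596 in WT1 to WT4. Rrm2 over Rrm1 was 0.103, 0.113, 0.103 and 0.0950 in ANKO1 to ANKO4 against 0.0248, 0.0515, 0.0183 and 0.0262 in WT1 to WT4. Ccne1 over Cdk2 was 0.316, 0.214, 0.216 and 0.187 in ANKO1 to ANKO4 against 0.0660, 0.0812, 0.0288 and 0.0457 in WT1 to WT4. Each pair set a member called higher over a member not called, and several pairs share Mcm7 or Cdk2. The choice of pairs thus largely fixed the direction of the ratios. In 8 of the 8 ratios every ANKO library lay above every WT library. The margin was thinnest for Mcm4 over Mcm7, at 0.637 to 0.961 in ANKO libraries against 0.313 to 0.630 in WT libraries.

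**Figure D3:**
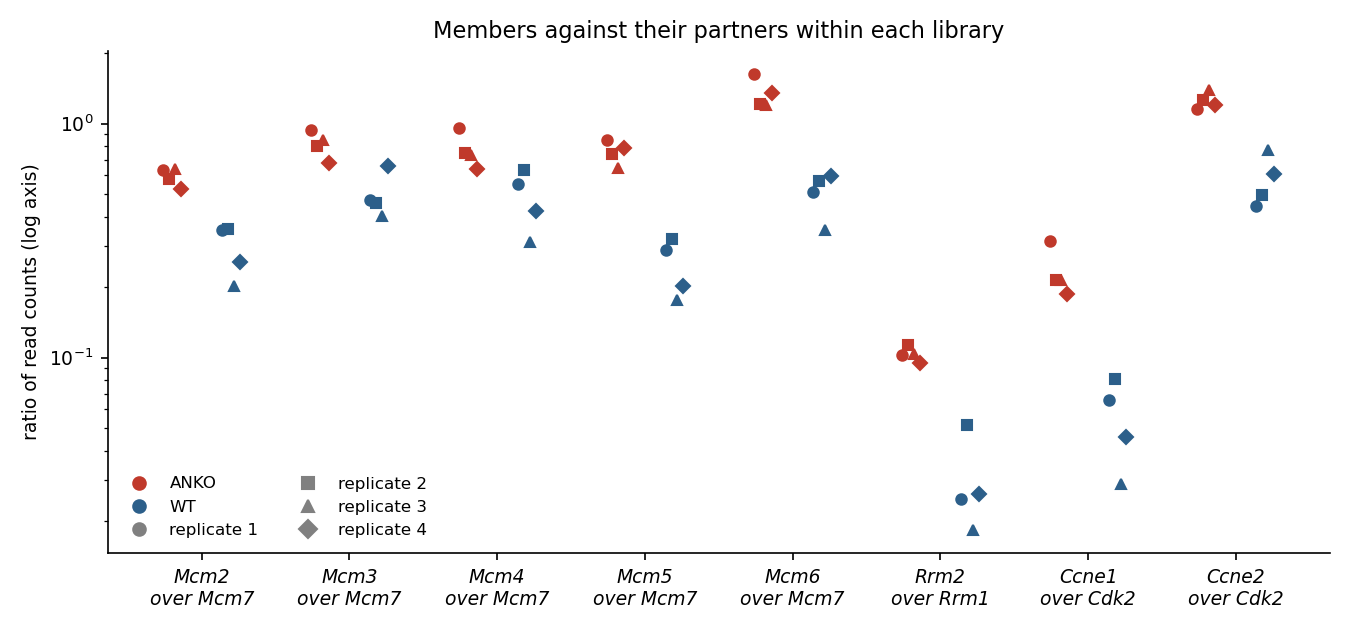
Ratio of read counts of 2 members within a library (log axis) for Mcm2 to Mcm6 over Mcm7, Rrm2 over Rrm1, and Ccne1 and Ccne2 over Cdk2, with ANKO libraries in red left of WT libraries in blue. The first member of each pair was called higher and the second was not called. Each ANKO point lies above the WT points of the same ratio, with Mcm6 over Mcm7 at 1.21 to 1.64 in ANKO and 0.350 to 0.596 in WT.

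Mki67, whose product coats mitotic chromosomes and marks cycling cells, was the G2/M gene with the highest level per length in ANKO mice and over all libraries, but not in WT mice, where Bub1b (0.789 RPKM), Nusap1 (0.679 RPKM) and Kif20a (0.677 RPKM) lay above it. It read 29.5, 39.5, 42.7 and 51.3 CPM in ANKO1 to ANKO4 against 5.05, 10.3, 3.91 and 3.80 CPM in WT1 to WT4. The rise was 7.08-fold (log2 fold change 2.82, SE 0.34, edgeR adjusted p = 0.000121), and per length the gene stood at 4.04 RPKM in ANKO mice and 0.573 RPKM in WT mice. Top2a, the topoisomerase that untangles sister chromatids, read 18.8, 29.7, 23.4 and 29.9 CPM in ANKO1 to ANKO4 against 3.66, 6.29, 2.84 and 1.82 CPM in WT1 to WT4. It rose 7.01-fold (log2 fold change 2.81, SE 0.35, edgeR adjusted p = 0.000113). In both genes WT2 was the highest WT library and ANKO1 the lowest ANKO library, and the groups did not overlap. In the fit with the muscle covariate Mki67 was at 1.64 (edgeR adjusted p = 0.00978) and Top2a at 1.47 (edgeR adjusted p = 0.0132).

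**Figure D4:**
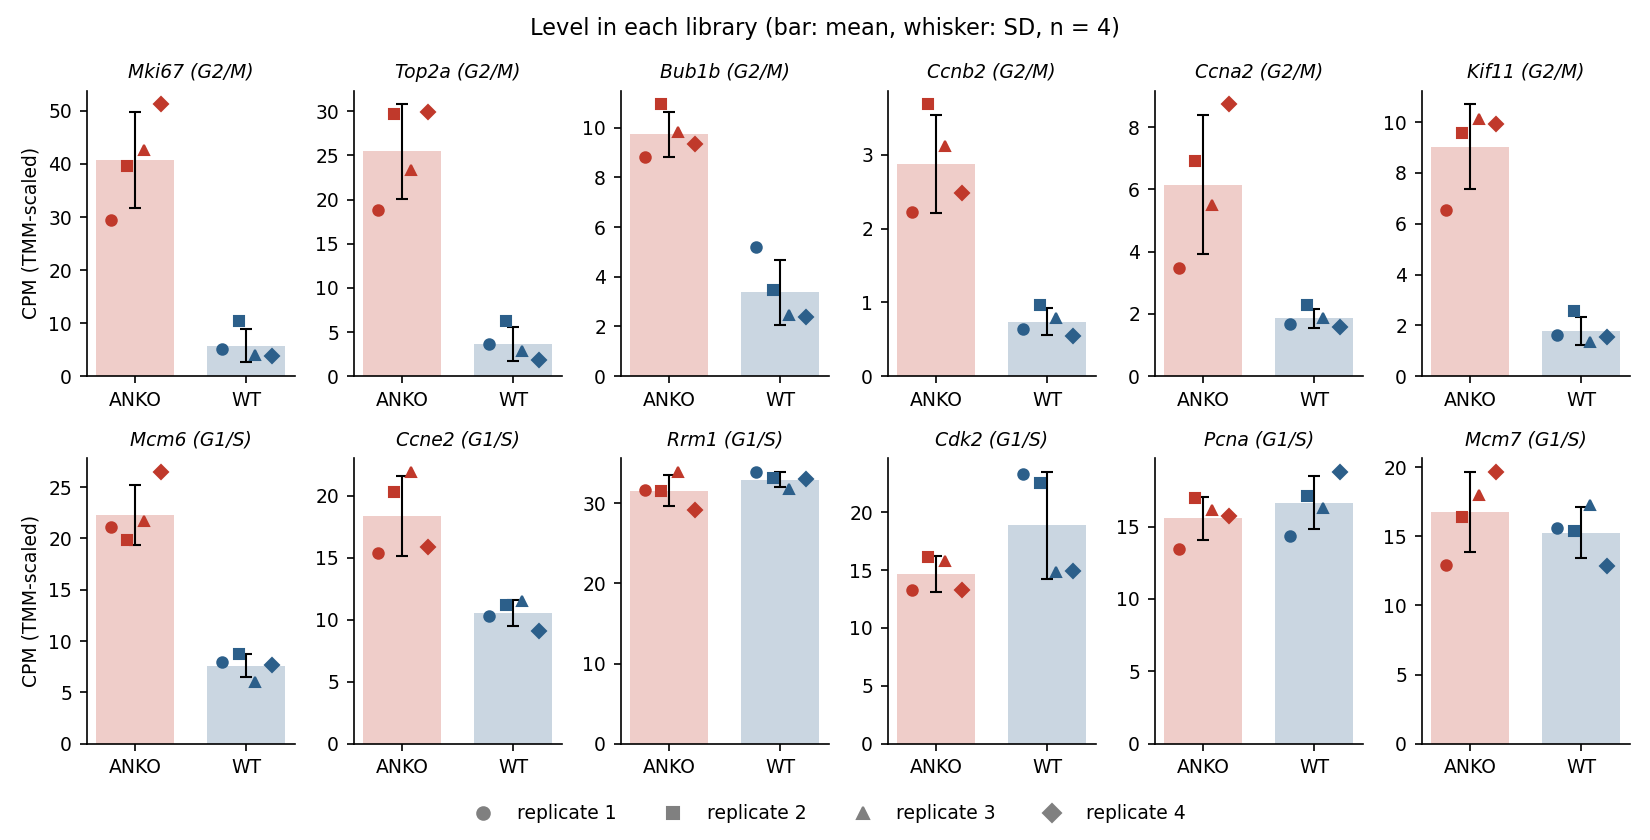
CPM (vertical axis, from 0) of the 6 G2/M genes (upper row) and 6 G1/S genes (lower row) with the highest mean RPKM, as points per library, with bars for the mean and whiskers for the SD of 4 libraries. Mki67 lies at 29.5 to 51.3 CPM in ANKO and 3.80 to 10.3 CPM in WT, while Rrm1 lies at 29.1 to 34.0 CPM in ANKO and 31.7 to 33.9 CPM in WT.

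The cyclins and kinases that start mitosis rose together. Cdk1, the kinase of mitotic entry, rose 7.42-fold to 3.83 ± 1.01 CPM in ANKO libraries, against 0.510 ± 0.312 CPM in WT libraries (log2 fold change 2.89, SE 0.39, edgeR adjusted p = 0.000156). Its partner Ccnb2 read 2.22, 3.69, 3.12 and 2.48 CPM in ANKO1 to ANKO4 against 0.644, 0.971, 0.793 and 0.546 CPM in WT1 to WT4, a rise of 3.86-fold (edgeR adjusted p = 0.000167). Ccnb1, the other B-type cyclin, had the widest error of the members (log2 fold change 2.92, SE 0.64), with 10 to 15 counts per ANKO library and 1 to 8 per WT library. Its value was 1.97 without WT3 and WT4 and 4.29 without WT1 and WT2. Ccna2, which serves both S phase and mitosis, read 3.48, 6.91, 5.49 and 8.74 CPM in ANKO1 to ANKO4 against 1.68, 2.29, 1.86 and 1.59 CPM in WT1 to WT4, a rise of 3.23-fold. Foxm1, the transcription factor of the mitotic genes, rose 3.46-fold to 3.80 ± 0.826 CPM in ANKO libraries, against 1.08 ± 0.363 CPM in WT libraries. Plk1, Aurka and Aurkb, kinases of the centrosome, spindle and kinetochore, rose 3.06-fold, 3.83-fold and 6.44-fold. Cdc25c, the phosphatase that activates Cdk1, had too few counts to be tested, with 2 to 9 counts per ANKO library and 0 to 4 per WT library.

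The largest rises were those of Birc5 and Bub1, which act in chromosome segregation and the spindle checkpoint. They rest on 6 to 16 and 6 to 13 counts per WT library, with SEs of 0.34 and 0.42. Birc5, survivin of the chromosomal passenger complex, read 2.07, 2.88, 3.40 and 4.37 CPM in ANKO1 to ANKO4 against 0.297, 0.505, 0.214 and 0.364 CPM in WT1 to WT4. Its rise of 8.86-fold was the largest of the members (log2 fold change 3.15, SE 0.34, edgeR adjusted p = 3.22e-05). The checkpoint kinase Bub1 read 1.38, 3.34, 2.93 and 2.77 CPM in ANKO1 to ANKO4 against 0.347, 0.505, 0.183 and 0.182 CPM in WT1 to WT4, a rise of 8.56-fold. Its relative Bub1b read 8.84, 10.9, 9.84 and 9.32 CPM in ANKO1 to ANKO4 against 5.20, 3.46, 2.47 and 2.37 CPM in WT1 to WT4, a rise of 2.92-fold. The kinetochore genes Cenpe and Cenpf rose 7.04-fold and 5.48-fold. The log2 fold change of Cenpf was 1.81 without WT3 and WT4 and 3.33 without WT1 and WT2, and that of Bub1 was 2.50 and 3.71. Ncapg, a subunit of condensin, rose 3.32-fold. Cdc20, the activator of the anaphase-promoting complex, rose 3.34-fold.

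Motor and spindle proteins followed the same direction over a wider range. Kif11, the motor that separates the spindle poles, read 6.54, 9.57, 10.1 and 9.91 CPM in ANKO1 to ANKO4 against 1.63, 2.56, 1.34 and 1.52 CPM in WT1 to WT4. It rose 5.09-fold (log2 fold change 2.35, SE 0.24, edgeR adjusted p = 2.64e-05). The microtubule depolymerase Kif2c rose 7.09-fold, with a log2 fold change of 2.02 without WT3 and WT4 and 3.87 without WT1 and WT2. The spindle assembly factor Tpx2 rose 6.88-fold. Kif23, a motor of cytokinesis, rose 3.08-fold, and Nusap1, a spindle protein, 2.05-fold. The smallest rises were those of Kif20a, a motor of cytokinesis (1.74-fold), and of Ube2c, the ubiquitin-conjugating enzyme of the anaphase-promoting complex (1.81-fold). Ube2c was the 1 called member whose groups overlapped, at 1.49, 1.27, 2.27 and 2.48 CPM in ANKO1 to ANKO4 against 1.34, 1.13, 0.732 and 0.910 CPM in WT1 to WT4 (edgeR adjusted p = 0.0292). Its exons share bases with Tnnc2, a gene of fast muscle on the other strand and 1 of the muscle markers (mean 1.63 CPM in ANKO libraries and 0.0790 CPM in WT libraries). Its call was lost without WT3, WT4, ANKO3 or ANKO4 (edgeR adjusted p = 0.0709 to 0.0861). Kif20a shares exon bases with Cdc23 and lost its call without WT3 and WT4 together (edgeR adjusted p = 0.0596).

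Of the 50 members, 15 share exon bases with another listed gene. A read from such a stretch cannot be assigned without knowledge of the strand, and the strand setting of the counting is not known here. Mki67, Cdk1, Birc5, Bub1, Kif11, Mcm5, Mcm6, Rrm1 and Rrm2 are not among them. Gins2, Ccna2, Ncapg, Cdc20, Tk1 and Nusap1 are, with Gse1, Exosc9, Lcorl, Elovl1, Afmid and Oip5 on the other strand. Of these partners Elovl1 and Afmid were called higher, Lcorl was called lower and the others were not called. Counts were low in the WT libraries for part of the list: 9 members, 8 of them G2/M genes, had fewer than 10 counts in at least 1 WT library.

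Genes of the same pathways outside the list were read in 6 further lists. Among other mitosis genes 57 of 67 tested were higher and 1 lower, and the median log2 fold change was 1.64. The smallest p-values were those of Incenp, the scaffold of the chromosomal passenger complex, which rose 3.98-fold, the centrosome kinase Nek2, which rose 9.73-fold, and Racgap1, a cytokinesis regulator, which rose 4.03-fold. The 1 lower gene was Pttg1, securin, the inhibitor of separase, at 33.6, 38.0, 32.6 and 26.5 CPM in ANKO1 to ANKO4 against 64.3, 65.4, 49.3 and 56.2 CPM in WT1 to WT4 (log2 fold change -0.84, SE 0.13, edgeR adjusted p = 0.000343). Among other replication factors 15 of 40 tested were higher and 6 lower, with a median of 0.31, shares of 37.5% and 15% beside 30.6% and 27.6% over all genes. Clspn, the checkpoint adaptor claspin, rose 13.7-fold, with means of 3.25 CPM in ANKO libraries and 0.239 CPM in WT libraries. The ligase of Okazaki fragments Lig1 and the polymerase delta subunit Pold3 rose 2.47-fold and 1.67-fold. The origin recognition subunit Orc3, the polymerase delta subunit Pold2 and the clamp loader subunit Rfc1 fell, by 0.52, 0.46 and 0.36 on the log2 scale. Gmnn, geminin, the inhibitor of Cdt1, read 3.35 to 6.01 CPM in ANKO libraries and 6.03 to 25.2 CPM in WT libraries (log2 fold change -1.44, edgeR adjusted p = 0.0271). It was at -2.06 without WT3 and WT4 and -0.39 without WT1 and WT2, and was not called without WT2 (edgeR adjusted p = 0.0518) or without ANKO2, ANKO3 or ANKO4 (edgeR adjusted p = 0.0524, 0.0636 and 0.0775). This gene lies outside the naming rule and was singled out after its values were seen.

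Upstream regulators were called in shares near those of all genes tested, 30.6% higher and 27.6% lower. Of 14 G1 cyclins, CDKs and E2F partners 5 were higher (35.7%) and 3 lower (21.4%), with a median of 0.01. The D-type cyclin Ccnd2 read 235, 248, 230 and 240 CPM in ANKO1 to ANKO4 against 60.5, 54.0, 36.4 and 54.1 CPM in WT1 to WT4, a rise of 4.65-fold (edgeR adjusted p = 1.74e-06). Ccnd1 rose 4.12-fold and the transcription factor Myc 3.72-fold. Cdk4, the kinase partner of the D-type cyclins, fell by 0.32 on the log2 scale. The repressive E2F members E2f5 and E2f4 fell by 0.82 and 0.38 on that scale. The call of Cdk4 (edgeR adjusted p = 0.0484) was lost without WT2, WT3, WT4, ANKO1, ANKO2 or ANKO3 (edgeR adjusted p = 0.0630 to 0.135), and that of E2f4 without WT4, ANKO1 or ANKO4 (edgeR adjusted p = 0.0551 to 0.0620). Of 11 tested CDK inhibitors, pocket proteins and inhibitory kinases 4 were higher and 4 lower (36.4% each, median 0.18). Cdkn2c, the p18 inhibitor of Cdk4 and Cdk6, read 40.7, 36.9, 39.4 and 37.2 CPM in ANKO1 to ANKO4 against 128, 145, 153 and 148 CPM in WT1 to WT4, a log2 fold change of -1.89 (SE 0.09, edgeR adjusted p = 2.36e-07). Its neighbour in function Cdkn2b, p15, rose 5.89-fold to 4.81 ± 0.856 CPM in ANKO libraries, against 0.870 ± 0.603 CPM in WT libraries. Cdkn1a, p21, read 27.9, 29.6, 42.0 and 38.5 CPM in ANKO1 to ANKO4 against 38.8, 76.8, 185 and 172 CPM in WT1 to WT4, and WT1 lay among the ANKO libraries (log2 fold change -1.78, edgeR adjusted p = 0.0136). With the muscle covariate Cdkn1a was at -0.14 (edgeR adjusted p = 0.884), without WT3 and WT4 at -0.77 and without WT1 and WT2 at -2.41. Cdkn2b was at 1.86 without WT3 and WT4 and 3.53 without WT1 and WT2. The pocket proteins parted, with Rbl1, an E2F target itself, up 2.37-fold and Rb1 and Rbl2 lower by 0.35 and 0.48 on the log2 scale. The inhibitory kinases Pkmyt1 and Wee1 rose 2.46-fold and 1.44-fold, and the call of Wee1 (edgeR adjusted p = 0.0388) was lost without WT3, WT4, ANKO1, ANKO2 or ANKO3 (edgeR adjusted p = 0.0532 to 0.104).

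Of the 6 genes of MuvB and B-Myb, which carry the mitotic transcription programme, 1 was higher and 1 lower (median 0.07). Mybl2, B-Myb, rose 1.91-fold and Lin52 fell by 0.64 on the log2 scale. Of 18 subunits of the ubiquitin ligases APC/C and SCF 4 were higher and 6 lower (median -0.17), shares of 22.2% and 33.3% beside 30.6% and 27.6% over all genes. Skp2, which targets p27 for degradation, rose 1.96-fold, and Anapc2 and Cdc16, both APC/C subunits, rose 1.26-fold and 1.20-fold. The call of Cdc16 was lost without ANKO2 (edgeR adjusted p = 0.0510). Cdc27, Cul1 and Anapc13 fell by 0.69, 0.37 and 0.81 on the log2 scale. With library totals alone the median of all genes was 0.17, in place of -0.01, and 10 falls were called in the 6 lists, in place of 21. Pold2, Rfc1, E2f4, Cdk4, Rb1 and Cul1 then lost the call and kept a negative sign.

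**Figure D5:**
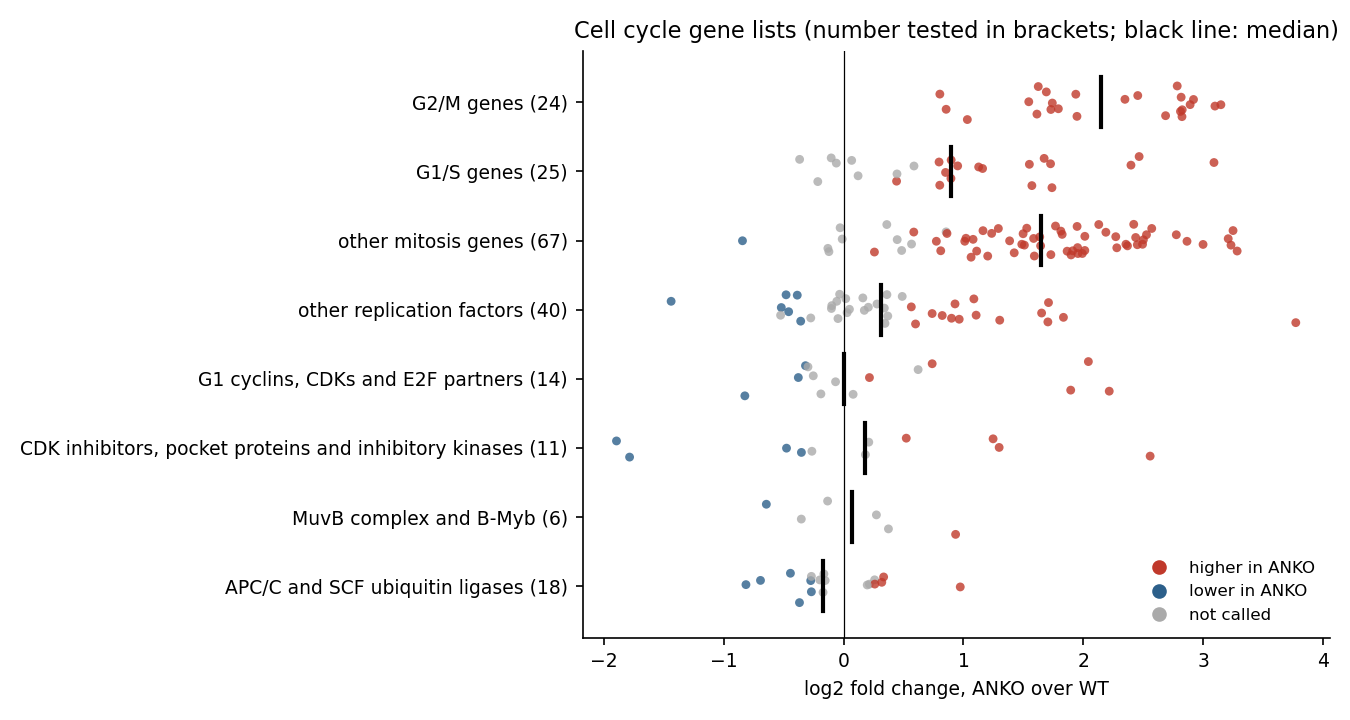
Log2 fold change (ANKO over WT, horizontal axis) of each tested gene in 8 cell cycle lists, with the number tested in brackets, red for higher, blue for lower, grey for not called, and a black line at the median. The G2/M genes and other mitosis genes have medians of 2.15 and 1.64, and the other replication factors, the upstream regulators and the ubiquitin ligases scatter on both sides of 0.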

How the data were processed

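Brown adipose RNA of 4 ANKO and 4 WT mice was depleted of rRNA before sequencing, per the labels' protocols. The submitters' processing notes name STAR 2.0.4b, featureCounts 1.45 and GRCm38. Annotation release, strand setting and the treatment of multi-mapped reads: not given in the sources used here. The authors deposited whole-number counts, with a CPM (counts over their sum) and an RPKM (that CPM per kb), per the file headers. Printed CPM and RPKM were recomputed from the counts.

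Symbols were matched for 40340 of 41388 genes. The 355 rRNA rows were left out. They held 0.801% to 1.13% of counts in ANKO libraries and 2.83% to 3.53% in WT libraries, so this share did not overlap between the groups. edgeR 4.0.16 (R 4.3.3) was used with filterByExpr, TMM and robust quasi-likelihood tests, adjusted by Benjamini-Hochberg over 16705 genes. The code was tried on simulated counts in which few genes changed. That setting differs from these data, where 58.2% of genes were called, so it does not check the scaling used here. The biological coefficient of variation was 20.6%. SEs derive from the F statistic. At 3 counts the floor was 0.115 to 0.437 CPM in ANKO and 0.0683 to 0.149 CPM in WT, counting error only. No libraries agreed within sampling noise (chi-square per degree of freedom at least 6.63).

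Members and lists were chosen with earlier results of these data known. Every member may be named. Values per library go to Mki67, Top2a, Pcna, the 6 most abundant members by RPKM and the 2 with the largest change in each subgroup, and members not called. Other lists name up to 3 called genes per direction with the smallest p. Further genes with values per library, and exceptions, were chosen after their values were seen. Alternatives used RLE, upper-quartile or no factors, other filters, DESeq2 1.42.0, limma-voom 3.58.1, a replicate block, left-out libraries, a muscle covariate, thinning, protein-coding nuclear genes and stricter thresholds. Leaving out WT1 and WT2 was chosen after seeing the data. Motifs were searched as letters, and figures drawn with matplotlib 3.10.9.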

Additional observations from a re-analysis of the deposited data

Results flagged for a closer look

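In 124 groups of 4 libraries (the members, Nampt, their sums and the partner ratios in each genotype), 3 held a library whose gap to the nearest other, as a share of the group's range, exceeded Dixon's critical value, and chance flags about 1 in 20 groups. Kif11 was lowest in ANKO1 (6.54 CPM against 9.57 to 10.1 CPM in the other ANKO libraries, gap 0.845 of the range). Ncapg was highest in WT2 (1.83 CPM against 0.885 to 1.001 CPM in the other WT libraries, gap 0.876 of the range). Nampt was highest in WT3 (571 CPM against 484 to 495 CPM in the other WT libraries, gap 0.875 of the range).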

How the results depend on the processing

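The muscle marker covariate moved every summary: 12 members were called higher against 41, with 6 G1/S and 6 G2/M genes against 17 and 24, 21 calls in the other lists against 107, and medians of 0.54 for G1/S and 1.28 for G2/M genes. Under it Mcm4 (-0.00853) and Wee1 (-0.0275), called in the plain fit, changed sign, as did Pcna, Mcm7, Uhrf1 and E2f2, which were called in neither fit. A threshold of 2-fold left 10 G1/S calls and 69 calls in the other lists. Without WT1 and WT2 the G2/M median was 2.60. Leaving out each library in turn gave 40 to 42 members called higher, 16 to 18 G1/S and 23 to 24 G2/M, medians of 0.81 to 0.94 and 1.99 to 2.33, and 102 to 116 calls in the other lists. DESeq2, limma-voom, the other filters and factors, thinning and protein-coding genes alone left 31 to 42 members higher and 0 lower. With library totals alone 66.7% of all calls were rises, against 52.5%. Same-numbered libraries did not deviate together (correlations -0.05 to 0.11), and with the replicate block 40 members were higher, Ube2c being lost (edgeR adjusted p = 0.0735). Of the members' single-gene values under alternatives other than stricter thresholds, 44 lost the call with the sign kept and 10 gained one. The sign changed in 13 of the values, over 7 members, of which Mcm4 was the 1 that had been called. Mcm4 lost its call there too. Depth limits the rare members most: after thinning to the lowest total, 40 of the 50 could be tested.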

Other observations

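Among the genes of the 6 further cell cycle lists, 7 had too few counts to be tested, and their values are given without a test. Cdkn2a, which encodes the p16 and p19 inhibitors, read 0.421, 0.461, 0.567 and 0.729 CPM in ANKO1 to ANKO4 against 0, 0, 0.0610 and 0.0683 CPM in WT1 to WT4, where the floor of 3 counts was 0.0683 to 0.149 CPM. The ANKO libraries held 4 to 11 counts of it and the WT libraries 0 to 3. In 5 of the 7, Cdkn2a, the flap nuclease Fen1, the kinase subunit Cks2, the kinetochore gene Cenph and the spindle gene Troap, the lowest ANKO library lay above the highest WT library. The share of 28.7% given above covers tested genes only, and no share over untested genes was computed. Fen1 held 3 to 21 counts per ANKO library and 2 to 8 per WT library. Troap held 2 to 20 and 1 to 4. Depdc1a and Ska1 overlapped between the groups.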
